A study of Homo sapiens with 6 samples.

Results

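Transcript levels were analysed for 10 genes of the NRF2 antioxidant system, the transcription factor NRF2 (gene NFE2L2), its inhibitor KEAP1, the glutathione genes GCLC, GCLM and GSR, the thioredoxin genes TXN, TXNRD1 and SRXN1, and the target enzymes NQO1 and HMOX1. The genes were chosen by symbol, with earlier results of these data known, and each had 1 row among the 12982 genes of the deposited table. RNA sequencing was carried out on SW480, a human colorectal adenocarcinoma cell line labelled as wild type (WT) in both groups. Cells received DMSO, the solvent control, or MPM-1, a mitochondrial fluorescent probe that the labels also name WT4, for 24 h, with 3 libraries per treatment. The dose of MPM-1 was not given for this experiment in the sources used here, and neither was whether the 3 libraries came from separate cultures, so p-values measure only the spread between these libraries, which may be technical.

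In unstressed cells KEAP1 binds NRF2 and passes it to a CUL3 ubiquitin ligase, so that the protein is made and degraded continuously. When oxidants or electrophiles modify KEAP1, NRF2 accumulates, pairs with a small MAF protein and binds antioxidant response elements in front of genes that make glutathione, reduce thioredoxin and supply NADPH. In the colonic epithelium these enzymes deal with reactive compounds from food, bacteria and mitochondria. NRF2 is controlled mainly through its protein, which RNA sequencing does not measure.

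The core letters of the antioxidant response element, TGACNNNGC, were searched on both strands of RefSeq promoter windows, each running from 250 bases before to 50 bases after an annotated start (GRCh38.p14). Windows were matched for 8 of the 10 genes, all but GSR and HMOX1, and there were 11 of them. The letters stood in windows of GCLM, TXNRD1 and KEAP1, and did not stand in the windows of NFE2L2, GCLC, TXN, NQO1 and SRXN1. Of all 27305 genes with a window, 16.1% held the letters in at least 1 window, against 3 of these 8, a description with no test. The matches are printed 5′ to 3′ on the strand of the gene, with the matched letters in capitals, and are shown because they are the only stretches of these 11 windows that hold the letters.
GCLM, chr1:93909446-93909474, minus strand: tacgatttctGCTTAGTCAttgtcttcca
TXNRD1, chr12:104215670-104215698, plus strand: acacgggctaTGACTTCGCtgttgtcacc
TXNRD1, chr12:104215761-104215789, plus strand: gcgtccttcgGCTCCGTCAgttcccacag
TXNRD1, from the other window, chr12:104286920-104286948, plus strand: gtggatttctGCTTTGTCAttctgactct
KEAP1, chr19:10502807-10502835, minus strand: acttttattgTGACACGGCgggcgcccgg
KEAP1, chr19:10502784-10502812, minus strand: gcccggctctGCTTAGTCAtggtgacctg
The matches of GCLM and of the last KEAP1 line shared all their letters, TGACTAAGC when read on the strand opposite to the gene. The first KEAP1 match and the first TXNRD1 match read in the direction of the gene. A match of letters does not show that a protein binds there. The letters were not searched outside these windows, so their absence here does not show that a gene lacks the element.

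MPM-1 treatment moved most of the 10 genes upward. In edgeR's quasi-likelihood test, 8 genes rose (NQO1, SRXN1, GCLC, TXN, NFE2L2, TXNRD1, GSR and GCLM), KEAP1 fell, and HMOX1 did not pass at an adjusted p under 0.05. By that rule 56.5% of all genes tested passed, 27.7% of all genes as higher and 28.8% as lower, against 9 of these 10. At the stricter rule, which also asks for an adjusted p under 0.01 and a change of 1 or more on the log2 scale, SRXN1 and NQO1 were called higher and none was called lower, against 14.3% of all genes (5.58% higher and 8.75% lower). The median log2 fold change of the 10 genes was 0.56, beside -0.03 for all genes. In CPM (counts scaled by TMM to a common library size) the treatments did not overlap in 9 of the 10 genes, and in 64.3% of all genes. With scaling by library size alone 7 of the 10 genes passed (GCLM and GSR no longer did) and 1 was called, and with limma on log2(FPKM + 0.1) 6 passed (TXNRD1 was also lost), while the sign of HMOX1 changed under both. These settings moved the median of all genes to -0.18 and -0.15, so part of each shift is shared by all genes, and the share of called genes that were higher was 39.0% in edgeR with TMM, 26.8% with library size alone and 29.3% with limma on log2(FPKM + 0.1).

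**Figure D1:**
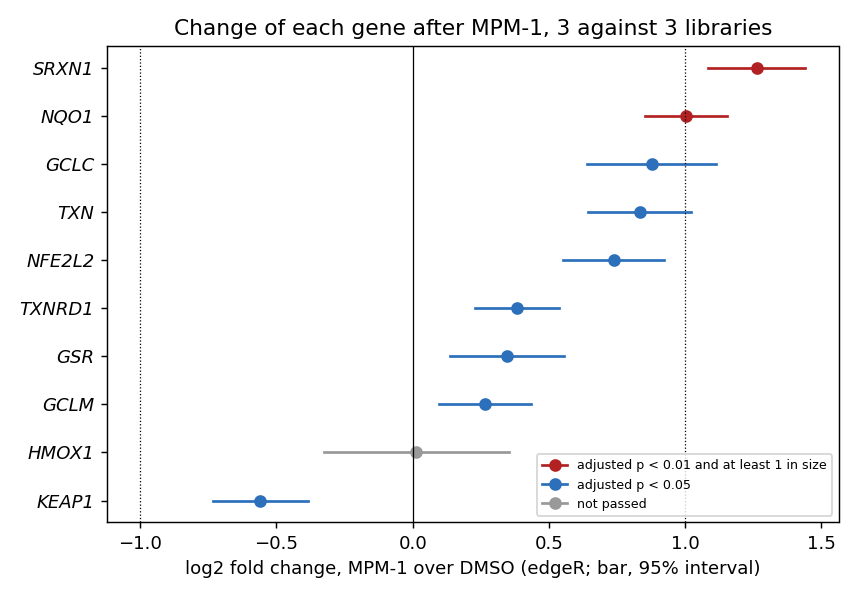
The log2 fold change of each gene (MPM-1 over DMSO, horizontal axis) from edgeR, with its 95% interval as a bar. The values run from -0.56 for KEAP1 to 1.26 for SRXN1, and the interval of HMOX1 spans 0 (its sign changed with scaling by library size alone and with limma on FPKM).

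**Figure D2:**
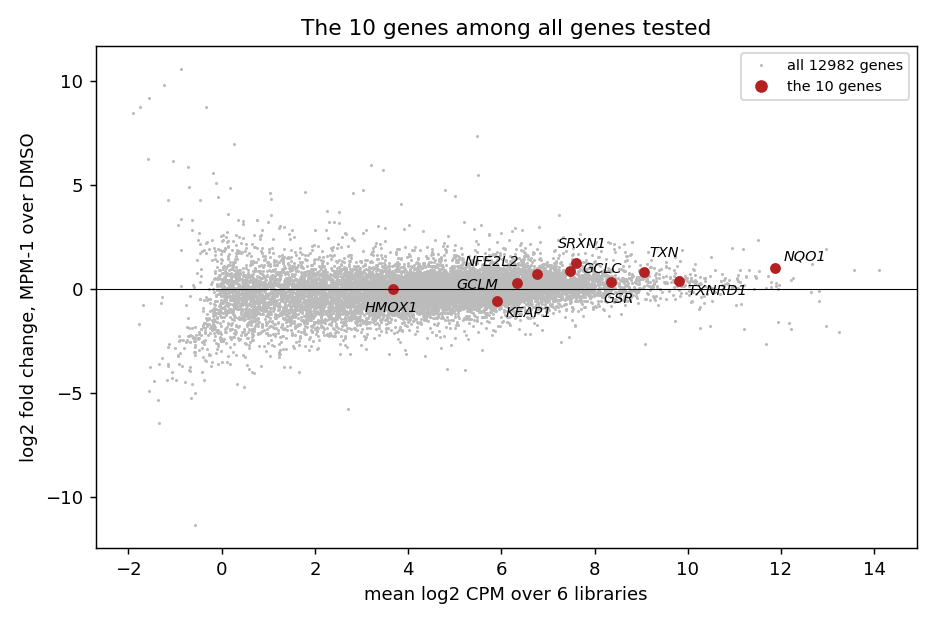
The log2 fold change (vertical axis) against the mean log2 CPM over the 6 libraries (horizontal axis) for all 12982 genes as grey points, with the 10 genes in red. Values far from 0 at the left edge belong to genes with few or no counts in a treatment and depend on the prior count. The 10 genes lie within the cloud, between -0.56 and 1.26.

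The library totals ranged from 31733667 to 40269820 counts. On the first principal component of log2 CPM (72.8% of the variance) the DMSO libraries lay on one side and the MPM-1 libraries on the other. Transcripts encoded by mitochondrial DNA made up 8.28 to 9.11% of the counts after DMSO and 1.95 to 2.35% after MPM-1. Leaving those transcripts out, 9 of the 10 genes passed and 2 were called, as before. The 10 genes together held 0.459 to 0.501% of the counts after DMSO and 0.753 to 0.840% after MPM-1. The largest part of that sum was NQO1, with 82309 to 114643 counts per library after DMSO and 157640 to 173366 after MPM-1. Of 11 colonic epithelium markers 10 were measured, with a summed level of 5128 to 5895 FPKM after DMSO and 7138 to 7625 FPKM after MPM-1. The highest of them were KRT8, KRT18 and KRT19, with means of 2124, 1234 and 1206 FPKM after DMSO. Within that list CDX2, KRT20, CDX1 and VIL1 fell (log2 fold change -2.20, -2.03, -0.98 and -0.88). KRT18 and KRT19 (0.89 each), CDH1 (0.82), LGALS4 (0.50) and KRT8 (0.42) rose, and EPCAM did not pass (-0.0008). Other cell types were represented by 1 of 5 leukocyte markers (CD68, 31.5 to 45.9 FPKM after DMSO and 68.4 to 73.6 FPKM after MPM-1), 1 of 5 fibroblast markers (COL1A1, at most 0.510 FPKM), 0 of 3 endothelial and 0 of 4 red cell markers. The part of these shifts in the results below was not tested. In bulk RNA, fewer cells of a kind and less RNA per cell cannot be told apart.

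The regulator pair moved in opposite directions. NFE2L2 (chromosome 2, 177227595 to 177392697, minus strand, GRCh38) was measured at 30.4, 33.1 and 34.4 FPKM after DMSO and at 46.1, 53.2 and 50.8 FPKM after MPM-1. FPKM values, as deposited by the authors, are fragment counts scaled for transcript length and library size. All 3 MPM-1 libraries lay above all 3 DMSO libraries, with means of 32.6 ± 2.03 and 50.03 ± 3.64 FPKM (SD, n = 3). On the count scale NFE2L2 was 1.67-fold higher (log2 fold change 0.74, SE 0.083, edgeR adjusted p = 7.32e-05). Its exons overlap those of AGPS on the other strand, which had a log2 fold change of 0.03 (edgeR adjusted p = 0.759), and use of strand in the counting is not given in the sources used here. NFE2L2 exons also overlap AC019080.1 on the same strand and AC079305.1 on the other, neither of which was among the genes tested.

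KEAP1 (chromosome 19, 10486120 to 10503741, minus strand), the adaptor that presents NRF2 for degradation, was measured at 25.7, 27.1 and 25.6 FPKM after DMSO. After MPM-1 it was at 16.1, 17.2 and 16.4 FPKM. The groups were far apart relative to their spread, at 26.1 ± 0.859 and 16.6 ± 0.529 FPKM (SD, n = 3). KEAP1 was the only one of the 10 genes that fell, to 0.679 of its DMSO level (log2 fold change -0.56, SE 0.078, edgeR adjusted p = 0.000263).

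The ratio of NFE2L2 to KEAP1 within a library, which cancels the scaling of that library, was 1.18, 1.22 and 1.34 in FPKM after DMSO. It was 2.85, 3.10 and 3.10 after MPM-1, which is 2.42-fold higher, a difference of 1.27 on the log2 scale. This ratio and the other 3 given below were chosen after the values were seen, so they are given without a test. In counts in place of FPKM the difference was 1.30, and without any 1 library it lay between 1.24 and 1.33.

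**Figure D3:**
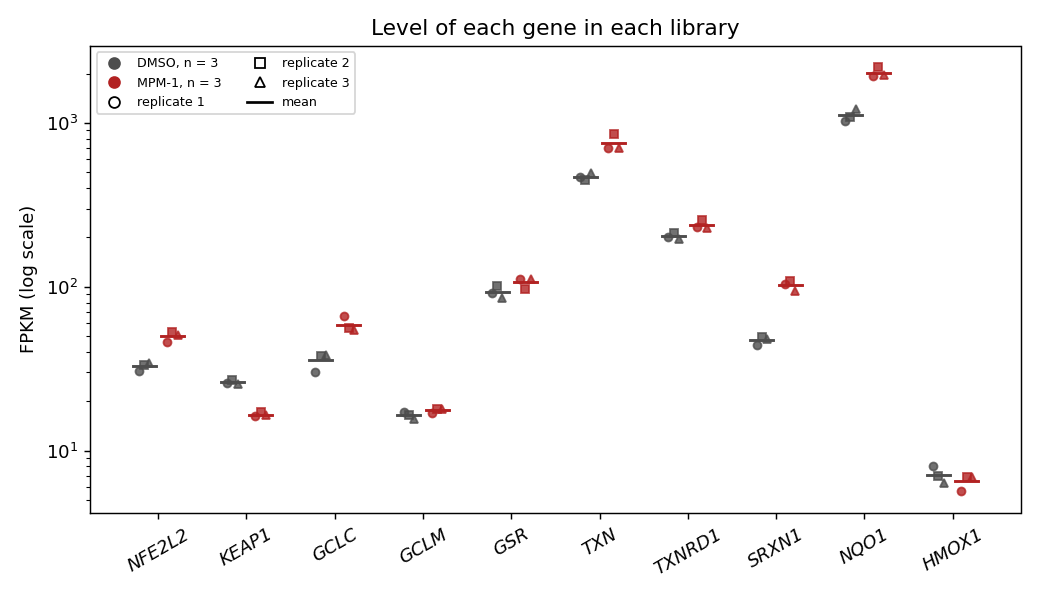
The level of each of the 10 genes in each library, in FPKM on a log axis, DMSO in grey and MPM-1 in red, with the marker shape giving the replicate and the line the group mean. NQO1 is the highest and HMOX1 the lowest in both treatments. The groups overlap in FPKM for GCLM, GSR and HMOX1.

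Glutathione synthesis starts with glutamate-cysteine ligase, an enzyme with a catalytic subunit (GCLC) and a modifier subunit (GCLM) that raises its activity. GCLC (chromosome 6, 53497341 to 53616970, minus strand) was at 30.3, 38.0 and 38.2 FPKM after DMSO and at 66.0, 55.9 and 54.2 FPKM after MPM-1. DMSO replicate 1 was the lowest and MPM-1 replicate 1 the highest, and the groups did not overlap (35.5 ± 4.50 and 58.7 ± 6.42 FPKM, SD, n = 3). GCLC rose 1.84-fold on the count scale (log2 fold change 0.88, SE 0.10, edgeR adjusted p = 0.000105). Its exons overlap AL033397.1 on the same strand and AL033397.2 on the other, neither of which was among the genes tested.

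GCLM (chromosome 1, 93885205 to 93909456, minus strand) was at 17.2, 16.4 and 15.5 FPKM after DMSO and at 17.0, 17.9 and 17.9 FPKM after MPM-1. In this unit the groups overlapped, at 16.4 ± 0.831 and 17.6 ± 0.547 FPKM (SD, n = 3). In CPM they did not, with 79.4, 73.0 and 70.1 after DMSO and 89.1, 88.4 and 90.0 after MPM-1. GCLM passed with the smallest change among those that passed, 1.20-fold (log2 fold change 0.27, SE 0.075, edgeR adjusted p = 0.0133). The call was lost with scaling by library size alone (log2 fold change 0.12, adjusted p = 0.186), with limma on log2(FPKM + 0.1) (0.10, adjusted p = 0.325), and in edgeR without DMSO replicate 2 (0.25, adjusted p = 0.0502) or DMSO replicate 3 (0.23, adjusted p = 0.0605).

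The ratio of the subunit genes was also followed within each library. The ratio of GCLC to GCLM was 1.76, 2.32 and 2.46 in FPKM after DMSO and 3.89, 3.12 and 3.02 after MPM-1. Every MPM-1 library was above every DMSO library, with a ratio 1.54-fold higher (0.62 on the log2 scale, between 0.48 and 0.72 without any 1 library).

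GSR, glutathione reductase, returns oxidized glutathione to its reduced form with NADPH. GSR (chromosome 8, 30678061 to 30727999, minus strand) was at 92.1, 101 and 85.4 FPKM after DMSO and at 112, 96.7 and 112 FPKM after MPM-1. MPM-1 replicate 2 lay below DMSO replicate 2, so the groups overlapped in FPKM (92.8 ± 7.79 and 107 ± 8.66, SD, n = 3). In CPM the values were 294, 312 and 264 after DMSO and 392, 329 and 386 after MPM-1, without overlap. GSR passed at 1.27-fold (log2 fold change 0.35, SE 0.093, edgeR adjusted p = 0.0105), but not with scaling by library size alone (0.19, adjusted p = 0.0805) or with limma on log2(FPKM + 0.1) (0.20, adjusted p = 0.149).

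In the thioredoxin arm, thioredoxin (TXN) reduces disulfides in proteins, TXNRD1 recharges it with NADPH in the cytosol, and sulfiredoxin (SRXN1) restores overoxidized peroxiredoxins. TXN (chromosome 9, 110243811 to 110256640, minus strand) was at 467, 447 and 491 FPKM after DMSO and at 703, 850 and 703 FPKM after MPM-1. The groups were apart, at 468 ± 22.0 and 752 ± 84.7 FPKM (SD, n = 3), and MPM-1 replicate 2 was the highest library. TXN rose 1.78-fold (log2 fold change 0.83, SE 0.084, edgeR adjusted p = 3.77e-05). GENCODE release 29 names 7 pseudogenes of TXN, none of which is in the table, so reads shared with them could have been counted either way.

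TXNRD1 (chromosome 12, 104215779 to 104350305, plus strand) was at 202, 214 and 194 FPKM after DMSO and at 232, 255 and 228 FPKM after MPM-1. The lowest MPM-1 library was above the highest DMSO library (203 ± 9.88 and 238 ± 14.6 FPKM, SD, n = 3). TXNRD1 rose 1.30-fold (log2 fold change 0.38, SE 0.069, edgeR adjusted p = 0.00119), and did not pass with limma on log2(FPKM + 0.1) (0.23, adjusted p = 0.0696). The ratio of TXN to TXNRD1 was 2.32, 2.09 and 2.53 in FPKM after DMSO and 3.03, 3.33 and 3.09 after MPM-1, 1.37-fold higher.

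SRXN1 (chromosome 20, 646615 to 653370, minus strand) had the largest fold change of the 10 genes in the edgeR fit. It was at 44.3, 49.2 and 48.1 FPKM after DMSO and at 104, 108 and 93.6 FPKM after MPM-1. The lowest MPM-1 library stood well above the highest DMSO library (47.2 ± 2.60 and 102 ± 7.46 FPKM, SD, n = 3). The rise was 2.40-fold (log2 fold change 1.26, SE 0.079, edgeR adjusted p = 2.58e-06), between 1.09 and 1.34 on the log2 scale over all alternatives, and SRXN1 was called under each of them. An annotated transcript, AL121758.1, shares exon sequence with it on the same strand and is not in the table.

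NQO1 and HMOX1 are both textbook NRF2 targets, and in these libraries the test was passed by NQO1 and not by HMOX1 (the difference between them was not tested). NQO1 (chromosome 16, 69706996 to 69726951, minus strand), a quinone reductase that uses NADPH or NADH, was at 1022, 1092 and 1217 FPKM after DMSO and at 1945, 2188 and 1955 FPKM after MPM-1. It was already among the most abundant transcripts after DMSO, above 99.4% of all genes in mean FPKM, and the groups were apart (1110 ± 98.9 and 2029 ± 137 FPKM, SD, n = 3). NQO1 exons overlap AC092115.2 on the other strand, which was not among the genes tested. NQO1 rose 2.01-fold (log2 fold change 1.00, SE 0.067, edgeR adjusted p = 3.41e-06). That value lies at the threshold of the stricter rule, and NQO1 was not called without DMSO replicate 1 (0.96), without MPM-1 replicate 2 (0.98), with the test limited to genes averaging 50 counts or more (just under 1), with library size alone (0.85) or with limma on log2(FPKM + 0.1) (0.87), though it passed at 0.05 in each.

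HMOX1 (chromosome 22, 35380361 to 35394214, plus strand), heme oxygenase, breaks down heme and is repressed by BACH1 as well as induced through NRF2. It was at 8.01, 6.98 and 6.37 FPKM after DMSO and at 5.63, 6.88 and 6.92 FPKM after MPM-1. The groups overlapped in both units, with 12.7 ± 1.73 and 12.9 ± 1.29 CPM (SD, n = 3). The log2 fold change was 0.01 with a 95% interval from -0.33 to 0.35 (edgeR adjusted p = 0.946), and its sign was negative with library size alone (-0.13) and with limma on log2(FPKM + 0.1) (-0.13). HMOX1 had 347 to 532 counts per library, and its interval leaves room for a change in either direction.

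The ratio of NQO1 to HMOX1 was 127, 157 and 191 in FPKM after DMSO and 346, 318 and 282 after MPM-1. The lowest MPM-1 library was above the highest DMSO library, and the ratio was 2.01-fold higher (1.01 on the log2 scale, between 0.86 and 1.15 without any 1 library).

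**Figure D4:**
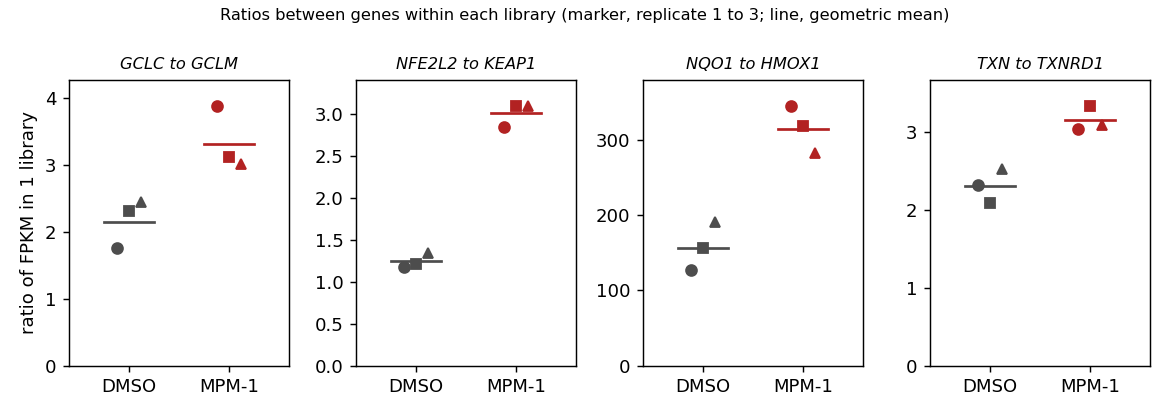
Ratios between the FPKM of 2 genes within a library, for the 4 pairs, with DMSO in grey, MPM-1 in red, the marker shape giving the replicate and the line the geometric mean. In all 4 pairs the 3 MPM-1 libraries lie above the 3 DMSO libraries, from 1.37-fold for TXN to TXNRD1 to 2.42-fold for NFE2L2 to KEAP1.

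Ordered by FPKM, which is scaled for length, the 10 genes after DMSO ran NQO1, TXN, TXNRD1, GSR, SRXN1, GCLC, NFE2L2, KEAP1, GCLM and HMOX1. Only the neighbours GCLC and NFE2L2 had overlapping libraries in that order. After MPM-1 SRXN1 had come up to GSR, whose libraries it now overlapped (102 ± 7.46 and 107 ± 8.66 FPKM, SD, n = 3). KEAP1 had come down to GCLM (16.6 ± 0.529 and 17.6 ± 0.547 FPKM), and these also overlapped. The percentile of KEAP1 among all genes went from 78.2 to 70.1, and that of SRXN1 from 87.3 to 94.3, while HMOX1 stood at 48.3 and 49.2.

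Other genes of the system were followed in 6 lists written from general knowledge. In the counts for each list, genes that rose or fell passed at an adjusted p under 0.05. By that rule 56.5% of all genes passed, 27.7% of all genes as higher and 28.8% as lower. The shares passing were 65% of partners and regulators, 61.5% of the glutathione list and 78.9% of the thioredoxin and peroxiredoxin list. They were 81.25% for NADPH supply, 73.3% for other known NRF2 targets and 25% for superoxide and peroxide enzymes. Among 20 partners and regulators of NRF2, all measured, 9 rose, 4 fell and 7 did not pass, with a median log2 fold change of 0.15. The 3 called genes were all higher (15%, beside 14.3% of all genes). MAFF, a small MAF protein that can pair with NRF2, was at 17.2, 13.1 and 11.4 FPKM after DMSO and at 55.6, 40.2 and 51.1 FPKM after MPM-1 (log2 fold change 1.97, SE 0.18, edgeR adjusted p = 1.95e-05). SQSTM1, an autophagy receptor (p62) that binds KEAP1, rose 3.79-fold (log2 fold change 1.92, SE 0.095), and its exons overlap MGAT4B and MRNIP on the other strand. MAFK rose 2.01-fold (1.00, SE 0.16), at the threshold, and lost its call without DMSO replicate 2 (0.90), without DMSO replicate 3 (0.92) and when MPM-1 replicate 3 was left out (0.92). It was also not called with library size alone (0.86) or with the test limited to genes averaging 50 counts or more (just under 1). The call was lost as well with limma on log2(FPKM + 0.1) (0.85) and on log2(FPKM + 1) (0.83). MAFK exons overlap TMEM184A on the other strand. Outside the naming rule, and chosen after their values were seen, MAFG (0.92), the NRF2 relative NFE2L1 (0.92) and the repressor BACH1 (0.91) passed as higher and NFE2L3 (-0.81) as lower. Chosen in the same way, the ligase components CUL3 (0.03) and RBX1 (-0.15) did not pass, and the sign of CUL3 was negative with library size alone and limma on FPKM. Without MPM-1 replicate 2, 5 genes of this list were called, all higher.

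The glutathione list held 47 genes, of which 39 were measured. Of these, 11 rose, 13 fell and 15 did not pass, with a median of -0.03, and 4 were called higher and 4 lower (20.5%, beside 14.3%). The called rises lay in cystine uptake and glutathione turnover, and turnover also held called falls (CHAC2 and DPEP1). SLC7A11, the cystine carrier of the xCT transporter, was at 5.98, 6.98 and 6.92 FPKM after DMSO and at 18.8, 22.5 and 18.9 FPKM after MPM-1 (3.35-fold, log2 fold change 1.74, SE 0.091, edgeR adjusted p = 8.42e-07). Its partner chain SLC3A2 rose 2.74-fold (1.45, SE 0.092). CHAC1, which degrades glutathione and is a target of the integrated stress response, rose 2.35-fold (1.23, SE 0.20), and its relative CHAC2 fell to 0.319 of the DMSO level (-1.65, SE 0.23). The other largest falls were GSTA4, a transferase for lipid aldehydes (10.5, 10.1 and 12.5 FPKM against 2.62, 2.66 and 2.39, log2 fold change -1.94, SE 0.16), and DPEP1, a dipeptidase of glutathione breakdown (-1.40, SE 0.12). The remaining called genes, outside the naming rule and named after their values were seen, were GPX2 (-1.13), a gut glutathione peroxidase, and OPLAH (1.04), which kept its call only without DMSO replicate 3 or MPM-1 replicate 2 when libraries were left out in turn. GSS, the enzyme after glutamate-cysteine ligase, passed at 0.52 without being called, and was named after its value was seen.

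The thioredoxin and peroxiredoxin list went more down than up, with 5 of 19 measured genes rising, 10 falling and 4 not passing, and a median of -0.36. MSRA and TXNIP were the 2 called genes (10.5%, beside 14.3%). TXNIP, which binds thioredoxin and inhibits it, was at 49.1, 52.2 and 50.1 FPKM after DMSO and at 3.46, 3.29 and 2.39 FPKM after MPM-1, a fall to 0.0675 of the DMSO level on the count scale (log2 fold change -3.89, SE 0.13, edgeR adjusted p = 1.09e-07). MSRA, a methionine sulfoxide reductase that draws on thioredoxin, was at 3.00, 2.21 and 2.20 FPKM after DMSO and at 6.17, 7.08 and 5.56 FPKM after MPM-1 (1.50, SE 0.21). The peroxiredoxins, a family of peroxide-reducing enzymes of which only some are clients of SRXN1, were looked at together after their values were seen. PRDX1 (-0.57), PRDX2 (-0.80) and the mitochondrial PRDX3 (-0.53) fell, PRDX5 (0.43) and PRDX6 (0.48) rose, and PRDX4 (0.13) did not pass. PRDX5 did not pass with limma on log2(FPKM + 0.1) (0.28, adjusted p = 0.0608), and PRDX4 had a negative sign there and with library size alone (-0.02 in both). Also named after their values were seen, TXN2 (-0.36) and TXNRD2 (-0.58), the mitochondrial counterparts of TXN and TXNRD1, passed as lower, while TXN and TXNRD1 themselves passed as higher. With library size alone 5 genes of this list were called, 1 higher and 4 lower, and without DMSO replicate 1 or MPM-1 replicate 2 there were 4, of which 3 were lower.

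**Figure D5:**
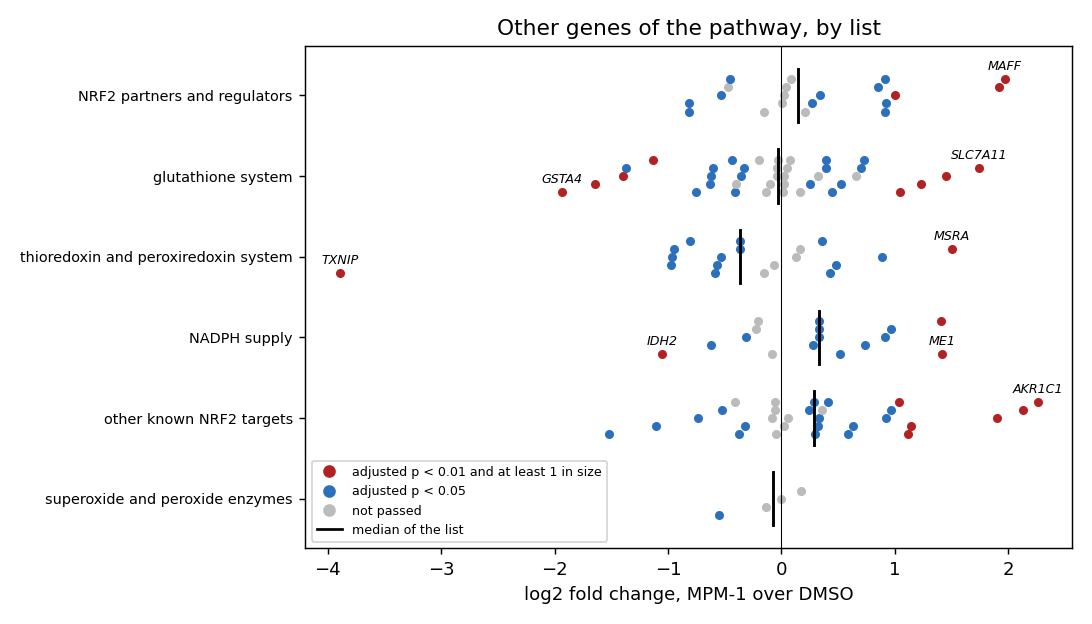
The log2 fold change (horizontal axis) of each measured gene in the 6 lists, with the colour giving the rule it passed and the vertical line the median of the list. TXNIP at -3.89 is the lowest and AKR1C1 at 2.26 the highest, and the median is lowest in the thioredoxin and peroxiredoxin list.

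Glutathione reductase and TXNRD1 both draw on NADPH. Of the 17 genes of NADPH supply 16 were measured, of which 10 rose, 3 fell and 3 did not pass, with a median of 0.33 and 3 called (18.8%, beside 14.3%). ME1, the cytosolic malic enzyme, was at 32.0, 37.1 and 33.3 FPKM after DMSO and at 87.0, 77.5 and 81.7 FPKM after MPM-1 (2.68-fold, log2 fold change 1.42, SE 0.086, edgeR adjusted p = 2.16e-06). IDH1, the cytosolic isocitrate dehydrogenase, rose 2.66-fold (1.41, SE 0.086), and its mitochondrial counterpart IDH2 fell from 37.0, 38.3 and 35.6 FPKM to 16.3, 15.8 and 15.9 FPKM (-1.05, SE 0.074). PGD, an enzyme of the pentose phosphate pathway, passed at 0.97 without being called, and was named after its value was seen. Named in the same way, ME2, the mitochondrial counterpart of ME1, passed as higher at 0.52 without being called.

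Among 30 other known NRF2 targets, all measured, 16 rose, 6 fell and 8 did not pass, with a median of 0.29. The 6 called genes were all higher in edgeR with TMM (20%, beside 14.3% of all genes and 5.58% higher). Lower calls appeared in other settings, with 3 higher and 2 lower with library size alone, 5 higher and 2 lower in DESeq2's test, and 5 higher and 1 lower without DMSO replicate 1 or DMSO replicate 3. AKR1C1, an aldo-keto reductase, was at 22.5, 22.4 and 23.8 FPKM after DMSO and at 79.0, 116 and 93.7 FPKM after MPM-1 (4.79-fold, log2 fold change 2.26, SE 0.11, edgeR adjusted p = 7.48e-07). Reads could be split between AKR1C1 and its close paralog AKR1C2 (1.12, named after its value was seen), so the value of each is uncertain. PTGR1, a reductase of reactive lipid products, rose 4.38-fold (2.13, SE 0.10). FTH1, the ferritin heavy chain that stores iron, rose 3.74-fold (1.90, SE 0.073), with the reservation that GENCODE release 29 names 25 pseudogenes of it and that its exons overlap BEST1 on the other strand. The other called genes, also named after their values were seen, were ABCC3 (1.14), an export pump, and OSGIN1 (1.04), whose change was 0.58 without MPM-1 replicate 1 and which was not called when any 1 DMSO library was left out. The ferritin light chain FTL passed at 0.92 without being called, and was named after its value was seen. Named in the same way, the iron exporter SLC40A1 (-1.52, SE 0.41, edgeR adjusted p = 0.0107) and ABCB6 (-1.11, SE 0.31, edgeR adjusted p = 0.0117) passed as lower. Both missed the stricter rule on adjusted p alone. SLC40A1 was low, at 0.284 to 0.691 FPKM after DMSO and 0.121 to 0.206 FPKM after MPM-1, and ABCB6 overlapped between treatments in CPM. SLC40A1 did not pass without DMSO replicate 3 (-1.22, edgeR adjusted p = 0.0531). The other genes that passed as lower, named after their values were seen, were TRIM16L (-0.73), FECH (-0.52), CBR1 (-0.38) and AKR1B10 (-0.32). In each of them the treatments did not overlap in CPM or in FPKM. The pass of AKR1B10 did not hold in all settings.

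The list of superoxide and peroxide enzymes had 4 of 5 genes measured. SOD1, named after its value was seen, passed as lower (-0.55, SE 0.090, edgeR adjusted p = 0.000655). In edgeR 0 genes of that list were called, 1 had an unadjusted p under 0.05, and DESeq2 called 0.

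The genes most like SRXN1, by Euclidean distance between centred log2 CPM values over the 6 libraries, were FADS3 (0.130), CTNNAL1 (0.153), SH3GLB1 (0.156), SMIM10L1 (0.159) and SYTL1 (0.163). Those most like HMOX1, the gene that changed least, were SAFB2 (0.0685), EVI5 (0.0864), LYSMD3 (0.0937), MON1B (0.101) and GPC1 (0.103). With log2(FPKM + 0.1) in place of CPM, 3 of the 5 were kept for each gene. None of these 10 neighbours stood in the lists above.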

How the data were processed

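RNA sequencing of SW480 cells gave 6 libraries, 3 per treatment, grouped by the sample labels. The authors deposited 1 table that gives, for each gene and library, a whole-number count and an FPKM. Its other columns, the FDR and log2 fold change of their own comparison, were not used. The submitters' processing notes name HISAT2, DESeq2 and the mouse build mm10, while the identifiers are human (12127 Ensembl identifiers, all in GENCODE release 29, and 855 NewGene identifiers). The counter, its strand setting and the annotation are not given in the sources used here. Every gene in the table had at least 115 counts in total, so lower genes were not analysed here, and 3 counts correspond to 0.0695 to 0.0985 CPM. Replicates differed by more than counting noise (chi-square per gene 15.4 to 33.2).

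Counts were scaled by TMM and tested across all 12982 genes with edgeR 4.0.16 in R 4.3.3 (quasi-likelihood, two-sided, Benjamini-Hochberg adjustment, prior count of 2 for logarithms), after filterByExpr, which removed no gene. The common dispersion was 0.0231. Alternatives used DESeq2 1.42.0 and limma 3.58.1, the latter on log2(FPKM + pseudocount) for genes averaging 1 FPKM or more, a scale that understates changes of low genes. The code was tested on simulated data. The 10 genes and the lists were chosen with earlier results of these data known. Named in the text were the 10 genes, in each list the 3 largest rises and falls among called genes, and the 5 nearest genes of the members with the largest and smallest change. Other genes of the pathway lists are marked as chosen after their values were seen. Overlaps and pseudogenes came from GENCODE release 29, promoter windows from RefSeq.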

Additional observations from a re-analysis of the deposited data

How the results depend on the processing

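The number of the 10 genes that passed was 9 in edgeR with TMM and 6 to 9 over the alternatives (8 to 9 without any 1 library). The number called was 2, and was 1 with library size alone, with a mean of at least 50 counts, with limma on log2(FPKM + 0.1) with and without the filter, and with limma on log2(FPKM + 1). Without any 1 library it was 1 to 2. Called genes were 3 among the partners and regulators of NRF2 (2 to 5 without any 1 library), and 2 in the thioredoxin and peroxiredoxin list (2 to 4 without any 1 library, and 5 with library size alone and with limma on log2(FPKM + 0.1) with and without the filter). Among other known NRF2 targets 6 were called, all higher, and 3 with limma on log2(FPKM + 1), all higher. The split was 3 higher and 2 lower with library size alone and 5 higher and 2 lower in DESeq2's test. The cause was not tested. The counts for the glutathione, NADPH and superoxide lists stayed within 1.5 times.

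The log2 fold change of HMOX1 was negative with library size alone (-0.13), with limma on log2(FPKM + 0.1) with and without the filter (-0.13) and on log2(FPKM + 1) (-0.12), and when 1 library was left out in turn it lay between -0.067 and 0.12, negative without DMSO replicate 2 (-0.0099), without DMSO replicate 3 or without MPM-1 replicate 3 (-0.024). CUL3 was at -0.12, -0.16 and -0.15 and PRDX4 at -0.024, -0.025 and -0.025 with library size alone, limma with pseudocount 0.1 (with and without the filter) and limma with pseudocount 1. The median of all genes was -0.18 with library size alone, -0.15 and -0.17 with limma on log2(FPKM + 0.1) with and without the filter, and -0.13 on log2(FPKM + 1).

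Same-numbered DMSO and MPM-1 libraries did not deviate together (correlations 0.024, 0.14 and -0.068), so the numbers were not taken as a pairing. With the replicate number as a block, 9 of the 10 genes passed, 2 were called, other known NRF2 targets split into 5 higher and 1 lower, and 1832 of all genes were called in place of 1861. Leaving out the transcripts encoded by mitochondrial DNA was chosen after the data were seen. With 3 libraries per group an exact permutation test cannot give a p under 0.1.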
